A study of Saccharomyces cerevisiae with 14 samples.

Results

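The mitochondrial respiratory chain and ATP synthase of Saccharomyces cerevisiae were described through 38 nuclear genes: 3 NADH dehydrogenase genes, 4 succinate dehydrogenase genes, 9 genes of the cytochrome bc1 complex, 2 cytochrome c genes, 9 genes of cytochrome c oxidase and 11 genes of the ATP synthase. A probe set belonged to the set if its annotated gene was on this list. No measured value was a criterion, but the list was chosen with earlier results of these data known. All 38 genes were measured, with 1 probe set each, among 5449 genes on the array, and none of the 38 probe sets had a design shared between near-identical genes.

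The study asked how expression in yeast changes under conditions that inhibit sirtuins, NAD+-dependent protein deacetylases. RNA from 14 cultures in YPD, a rich glucose medium, was hybridised to Affymetrix Yeast Genome 2.0 arrays, and each of 7 groups held 2 arrays, A and B, from duplicate cultures in log phase (optical density at 600 nm of about 0.5). Every strain, controls included, was MATa his3D200 leu2D1 met15D0 trp1D63 ura3-167. To this background npt1Δ added npt1D::kanMX4, which removes nicotinic acid phosphoribosyltransferase, and pnc1Δ added pnc1D::kanMX4, which removes nicotinamidase. The bna1Δ strain carried bna1D::kanMX4, the loss of 3-hydroxyanthranilate dioxygenase of de novo NAD+ synthesis, and tna1Δ carried tna1D::kanMX4, the loss of the nicotinic acid permease. A further group was wild type grown with 5 mM nicotinamide, a sirtuin inhibitor. The remaining 4 arrays were untreated wild type in pairs coded ML1 and ML8. The labels do not say which wild-type pair belongs to which condition or whether a deletion strain is 1 clone, so all 4 wild-type arrays served as 1 control group. Nothing beyond the word duplicate says how separate the cultures were, so p-values measure the spread between these arrays, which may be partly technical.

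Budding yeast has no proton-pumping complex I. Electrons enter its chain from NADH through single-subunit dehydrogenases, Ndi1 facing the matrix and Nde1 and Nde2 facing the intermembrane space, and from succinate through succinate dehydrogenase. They pass through the cytochrome bc1 complex, cytochrome c and cytochrome c oxidase to oxygen, and the ATP synthase uses the resulting proton gradient. On glucose these genes are partly repressed, and the Hap2/3/4/5 complex and the heme-dependent factor Hap1 activate many of them. A pair of subunits come in isoforms, aerobic Cox5a and Cyc1 (iso-1-cytochrome c) and hypoxic Cox5b and Cyc7 (iso-2-cytochrome c).

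All values are log2 signals, and a difference is the mean of the first-named group minus the mean of the other. Arrays were normalized to each other, so a difference is relative to the other genes on the array and does not measure RNA per cell. Each deleted gene was at 1.89 to 2.28 on both arrays of its own strain, where the upper limit of background was 2.22 to 2.26. The untreated wild-type arrays held NPT1 at 12.3 to 12.5, PNC1 at 11.7 to 12.2, BNA1 at 9.45 to 9.99 and TNA1 at 12.3 to 12.6. The mating type a genes MFA1 and STE2 were checked too. With nicotinamide MFA1 was at 9.33 and 7.05, against 13.77 to 13.90 in untreated wild type. STE2 was at 11.72 and 9.26, against 14.56 to 14.66. The deletion strains had MFA1 at 13.64 to 13.83 and STE2 at 14.59 to 14.70. The cause was not tested. Of the 38 genes, 37 were above background on all 14 arrays, and NDE2 was above it on 7. Their mean signals ran from 7.03 for CYC7 to 13.7 for ATP1, NDE2 apart, but a signal is not comparable between probe sets.

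One wild-type array stood apart for these genes. ML1 array A was the lowest of the 4 wild-type arrays for 27 of 38 genes, and this was not counted over all probe sets. COX9, a small cytochrome oxidase subunit, was at 8.94 on it, against 11.20 on ML1 array B and 11.78 and 11.48 on the ML8 arrays. Set against the average of its 3 fellow arrays, ML1 array A had COX9 lower by 2.55, COX5A by 1.28, COX4 by 1.11 and SDH4 by 1.05, and 12 of 38 genes were lower by more than 0.5. On ML1 array A, 4 of 38 genes and 161 of all 5498 probe sets lay more than 1 from the mean of the other 3 arrays, in either direction. These counts were 0 and 12 on ML1 array B, 1 and 74 on ML8 array A, and 0 and 13 on ML8 array B. Between the ML1 and ML8 pairs limma's moderated test called none of the 38 genes (adjusted p at least 0.05 for each, 0.0728% of 5498 probe sets called). The distance of ML1 array A from array B enters the spread in that test, so a missing call does not show that the pairs were alike. The main results are given with all 4 wild-type arrays and without ML1 array A, an alternative added after the data had been seen. ML1 array A was picked out by its low values for these same genes, and leaving it out narrows the spread of the genes lowest on it. A p-value from that fit is thus not free of the choice, and a call made only there is a description.

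**Figure D1:**
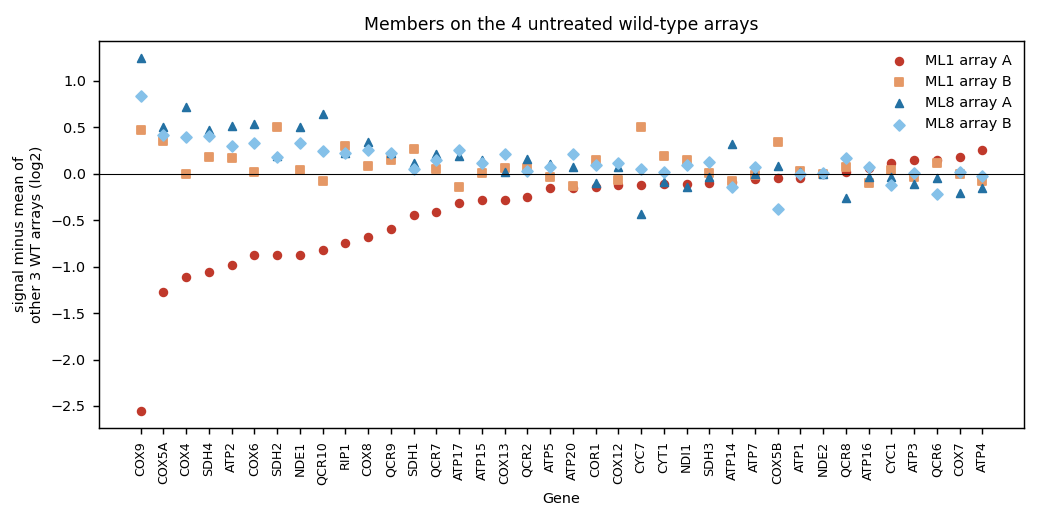
Signal of each of the 38 genes on each untreated wild-type array minus the average of the 3 remaining arrays (vertical axis, log2), 1 symbol per array, with genes (horizontal axis) ordered by the value of ML1 array A. ML1 array A lies far below the others at the left end, at -2.55 for COX9, while symbols for ATP1 and NDE2 nearly coincide.

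Differences from wild type were small for most of these genes in each condition, and the strain with the most calls was pnc1Δ. A gene was called at a Benjamini-Hochberg adjusted p under 0.05 over all 5498 S. cerevisiae probe sets in limma. In pnc1Δ 6 of 38 genes fell and none rose (1.42% of all probe sets fell and 0.818% rose, 2.24% in all). Without ML1 array A, 11 fell and none rose (2.29% of all probe sets fell and 1.38% rose, 3.67% in all), 5 of them shared with the first 6. In npt1Δ 1 of 38 rose and none fell (3.56% of all probe sets rose, 4.20% were called), and without ML1 array A 2 rose (3.62% of all probe sets rose, 4.24% were called). With nicotinamide 2 rose and 1 fell, where 8.88% of all probe sets rose and 7.02% fell (15.9% were called). Without ML1 array A 4 rose and 4 fell (11.0% and 10.0% of all probe sets). In bna1Δ and in tna1Δ limma called 0 of 38 genes, with and without ML1 array A, where 0.0182% of all probe sets were called, the deleted gene itself. An unadjusted p under 0.05 was reached by 4 of 38 genes in bna1Δ (3.13% of all probe sets) and by 3 of 38 in tna1Δ (3.58%).

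The medians of the 38 differences lay on both sides of 0. The median was 0.20 in npt1Δ (all probe sets -0.03), with 29 of 38 genes higher than in wild type. It was -0.15 in pnc1Δ (all probe sets -0.01), with 30 of 38 lower. In bna1Δ the median was 0.11 (all probe sets 0.02) and 34 of 38 genes were higher, and in tna1Δ it was 0.14 (all probe sets -0.02) and 32 of 38 were higher. With nicotinamide it was -0.04 (all probe sets -0.00), with 16 of 38 higher. The 5 comparisons share the wild-type arrays. Single wild-type arrays also lay on both sides of the wild-type mean, of which each is a part. Above it were 7 of 38 genes on ML1 array A, 28 on ML1 array B, 24 on ML8 array A and 32 on ML8 array B. The median differences from that mean on these arrays were -0.11, 0.03, 0.07 and 0.09. Without ML1 array A the medians were 0.05 in npt1Δ, -0.23 in pnc1Δ, 0.06 in bna1Δ, 0.09 in tna1Δ and -0.08 with nicotinamide, so the npt1Δ median moved most and the pnc1Δ shift grew. Without that array 29 of 38 genes were higher than in wild type in npt1Δ, 2 in pnc1Δ, 26 in bna1Δ, 31 in tna1Δ and 11 with nicotinamide.

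**Figure D2:**
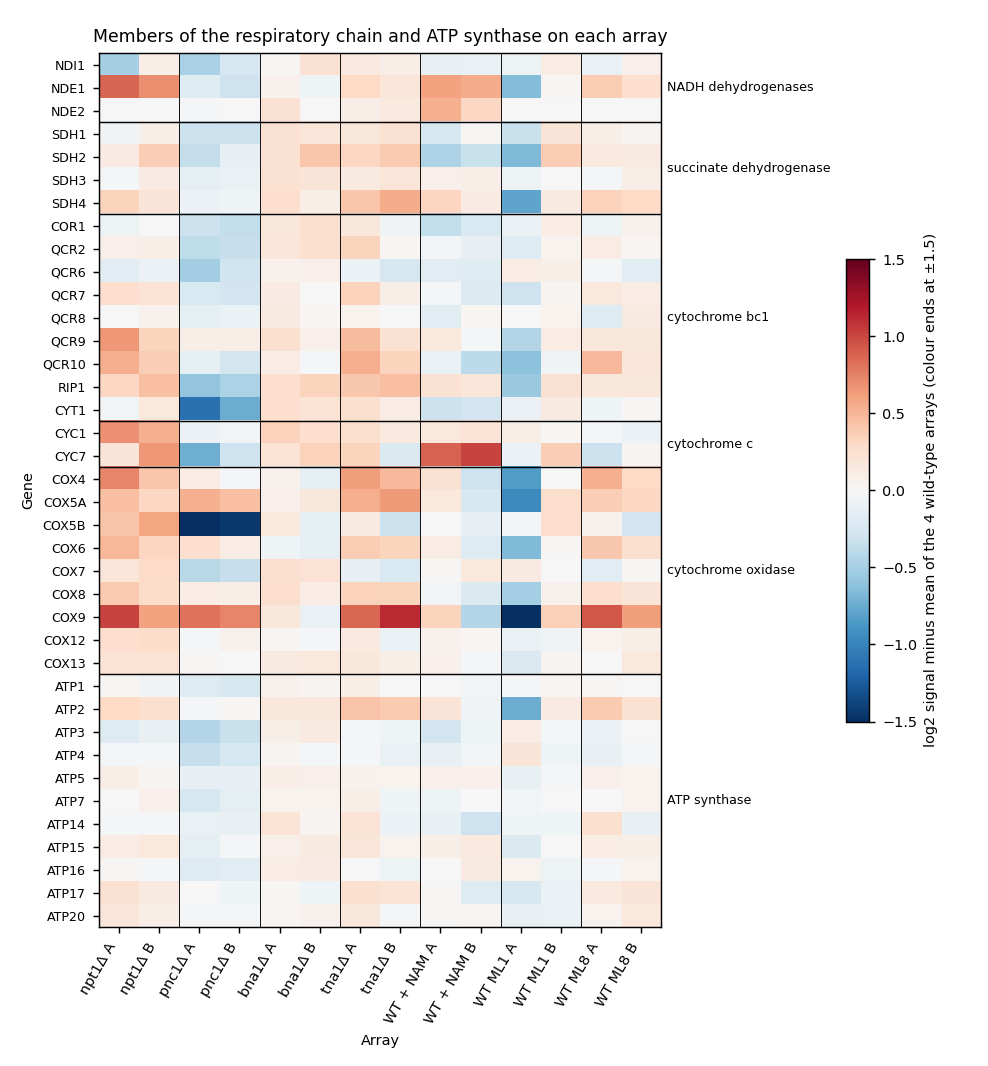
Log2 signal of each of the 38 genes (rows, grouped by complex) on each array (columns), minus the mean of the 4 wild-type arrays, on a colour scale that ends at ±1.5. Conditions stand left of the wild-type arrays. COX5B and CYT1 are low on both pnc1Δ arrays, and the ML1 array A column is low for COX9, COX5A and COX4.

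Of the 3 NADH dehydrogenase genes, 1 was called with nicotinamide against all 4 wild-type arrays. NDE2, the minor external enzyme, was at 2.76 and 2.54 with nicotinamide, against 2.23, 2.23, 2.23 and 2.24 in wild type, which was below the background limit on all 4 arrays. Both nicotinamide arrays were above every wild-type array, and NDE2 was at least 1.33-fold higher (each wild-type array at its background limit or its own signal, whichever was higher, adjusted p = 0.00288). NDE2 stayed close to background even so, and under quantile normalization of the values its adjusted p was 0.131. The other 8 arrays had NDE2 between 2.22 and 2.46.

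NDE1, the main external enzyme, was at 11.69 and 11.52 in npt1Δ and at 11.43 and 11.37 with nicotinamide, against 10.16 and 10.84 on the ML1 arrays and 11.20 and 11.06 on the ML8 arrays. These 4 arrays were above every wild-type array. The difference was 0.79 ± 0.23 (SE) in npt1Δ (adjusted p = 0.109) and 0.58 ± 0.23 with nicotinamide (adjusted p = 0.125). Without ML1 array A, where NDE1 is lowest, NDE1 rose by 0.57 in npt1Δ (adjusted p = 0.0138) and by 0.36 with nicotinamide (adjusted p = 0.0384), and fell by 0.47 in pnc1Δ (adjusted p = 0.0458). The pnc1Δ arrays had 10.64 and 10.50, the bna1Δ arrays 10.88 and 10.75, and the tna1Δ arrays 11.12 and 11.00. NDI1, the matrix-facing enzyme, was at 7.53 and 8.13 in npt1Δ, against 7.92 to 8.14 in wild type, and this was the lowest difference in that strain (-0.20 ± 0.15, adjusted p = 0.542). Its npt1Δ arrays overlapped wild type.

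None of the 4 succinate dehydrogenase genes was called against all 4 wild-type arrays. SDH2, the iron-sulphur subunit, was at 8.80 and 8.93 with nicotinamide, against 8.60 and 9.64 on the ML1 arrays and 9.40 and 9.40 on the ML8 arrays. Only ML1 array A was below the nicotinamide arrays. The difference was -0.40 ± 0.23 (adjusted p = 0.319), and without ML1 array A SDH2 fell by 0.62 (adjusted p = 0.00427). SDH2 also had the largest difference in bna1Δ, 9.49 and 9.67 on its 2 arrays (0.32 ± 0.23, adjusted p = 0.9998), which overlapped wild type. That difference was 0.11 without ML1 array A, and CYC1 had the largest one in bna1Δ (0.33). SDH1, the flavoprotein subunit, fell by 0.43 in pnc1Δ without ML1 array A (adjusted p = 0.0261), and its difference with all wild-type arrays was -0.32. The membrane anchor genes SDH3 and SDH4 had differences of -0.13 and -0.07 in pnc1Δ, and of -0.15 and -0.34 without ML1 array A, with no call.

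In the cytochrome bc1 complex, 8 of 9 genes were lower in pnc1Δ than in wild type (median -0.35), and 2 of them fell. CYT1, cytochrome c1, was at 7.57 and 7.95 in pnc1Δ, against 8.60, 8.82, 8.61 and 8.70 in wild type. The groups did not overlap, and the 12 arrays outside pnc1Δ all had at least 8.37. CYT1 fell 1.90-fold in pnc1Δ (-0.93 ± 0.11, adjusted p = 0.00215). With nicotinamide it was at 8.37 and 8.39, also below all 4 wild-type arrays, and the difference of -0.30 was not called. QCR6, an acidic subunit, was at 10.01 and 10.23 in pnc1Δ, against 10.64, 10.62, 10.50 and 10.37 in wild type, with no overlap. It fell by 0.41 ± 0.09 (adjusted p = 0.0484), and without ML1 array A its adjusted p was 0.0555.

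RIP1, the Rieske iron-sulphur protein, was at 9.14 and 9.25 in pnc1Δ, against 9.17 on ML1 array A and 9.95, 9.89 and 9.89 on the other wild-type arrays. The pnc1Δ arrays thus overlapped ML1 array A alone. The difference was -0.53 ± 0.18 (adjusted p = 0.195), and without ML1 array A RIP1 fell by 0.72 ± 0.06 (adjusted p = 0.00053). The core subunit genes COR1 and QCR2 also fell in pnc1Δ without that array, by 0.38 and 0.43 (adjusted p = 0.0381 and 0.0232). COR1 was the only one of the 38 genes to fall with nicotinamide against all 4 wild-type arrays, at 9.31 and 9.44, against 9.57, 9.79, 9.60 and 9.74 in wild type (-0.30 ± 0.08, adjusted p = 0.0356). The nicotinamide arrays were below all 4 wild-type arrays. In bna1Δ all 9 bc1 genes were higher than in wild type, by 0.04 to 0.29, and none was called. With ML1 array A left out 7 of 9 were higher, and QCR7 (-0.04) and QCR10 (-0.16) were lower.

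Against all 4 wild-type arrays, CYC1 was called in npt1Δ and CYC7 with nicotinamide. A call for 1 isoform alone does not show that the isoforms changed unequally. CYC1 was at 9.34 and 9.19 in npt1Δ, against 8.75, 8.69, 8.64 and 8.57 in wild type, and no other array exceeded 9.01. It rose 1.52-fold in npt1Δ (0.61 ± 0.07, adjusted p = 0.000262), the only call among the 38 genes in that strain. The other arrays had CYC1 at 8.58 and 8.62 in pnc1Δ, 9.01 and 8.91 in bna1Δ, 8.90 and 8.81 in tna1Δ, and 8.83 and 8.87 with nicotinamide. The bna1Δ, tna1Δ and nicotinamide arrays were each above all 4 wild-type arrays, with differences of 0.30, 0.19 and 0.19 that were not called. CYC1 rose by 0.21 with nicotinamide once ML1 array A was left out (adjusted p = 0.0422).

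CYC7, the hypoxic isoform, was at 7.75 and 7.87 with nicotinamide, against 6.77, 7.23, 6.53 and 6.90 in wild type. Both nicotinamide arrays were above all 12 others, the highest of which was an npt1Δ array at 7.50. CYC7 rose 1.93-fold with nicotinamide (0.95 ± 0.22, adjusted p = 0.0146). With nicotinamide array A left out the difference was 1.01 (adjusted p = 0.0645), and with array B left out 0.89 (adjusted p = 0.122). In pnc1Δ CYC7 was at 6.13 and 6.55, overlapping wild type (-0.52 ± 0.22, adjusted p = 0.296).

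**Figure D3:**
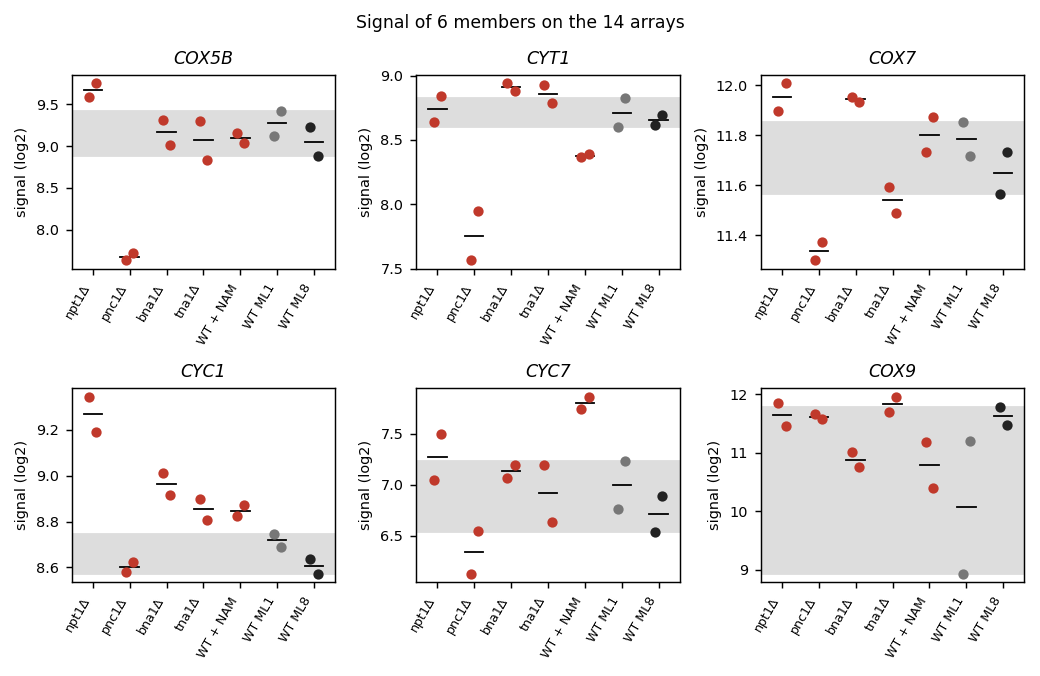
Log2 signal (vertical axis) of 6 of the 38 genes on each array, 1 point per array, with a bar at the mean of each group's 2 arrays and a grey band over the range of the 4 wild-type arrays, which stand at the right. COX5B, CYT1 and COX7 lie below the band in pnc1Δ, CYC1 above it in npt1Δ and CYC7 above it with nicotinamide, and the band of COX9 reaches down to ML1 array A.

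Cytochrome oxidase held the largest call among the 38 genes. COX5B, the hypoxic isoform of subunit V, was at 7.64 and 7.72 in pnc1Δ, against 9.13, 9.42, 9.22 and 8.88 in wild type, and every other array had at least 8.84. COX5B fell 2.80-fold in pnc1Δ (-1.48 ± 0.16, adjusted p = 0.00146), and 0.182% of all probe sets had a difference at or below it. COX7, a small membrane subunit, was at 11.30 and 11.37 in pnc1Δ, against 11.85, 11.72, 11.56 and 11.73 in wild type, with no overlap, and fell by 0.38 ± 0.08 (adjusted p = 0.0424). COX5A, the aerobic isoform of subunit V, was at 12.25 and 12.17 in pnc1Δ, against 10.76, 11.98, 12.09 and 12.03 in wild type. Both pnc1Δ arrays were above all wild-type arrays, and the difference of 0.49 ± 0.32 was not called (adjusted p = 0.522). It was 0.18 without ML1 array A.

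COX9 had the largest positive difference of the 38 genes in npt1Δ, pnc1Δ and tna1Δ, 0.81, 0.77 and 0.99 (SE 0.64 each), none of it called. Its 2 arrays were at 11.86 and 11.45 in npt1Δ, 11.66 and 11.58 in pnc1Δ and 11.71 and 11.96 in tna1Δ. These 6 arrays lay near the ML8 pair and far above ML1 array A. Without ML1 array A the differences were 0.17, 0.13 and 0.35. COX6 had the lowest difference in bna1Δ, where its arrays were at 11.13 and 11.06, against 10.54, 11.21, 11.60 and 11.44 in wild type (-0.10 ± 0.24). It was -0.32 without ML1 array A, and COX9 was then lowest in bna1Δ (-0.60). COX7 had the lowest in tna1Δ, at 11.59 and 11.49 (-0.18 ± 0.08, adjusted p = 0.790). In npt1Δ all 9 oxidase genes were higher than in wild type (median 0.38), and none was called. All 9 were higher without ML1 array A too, with a median of 0.19. COX5A and COX8 fell with nicotinamide when ML1 array A was left out, by 0.36 and 0.30 (adjusted p = 0.041 and 0.0278).

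The 11 ATP synthase genes had a median span of 0.39 over the 14 arrays, where the median span of the 38 genes was 0.68. Their spans ran from 0.22 for ATP5, the stalk subunit that confers oligomycin sensitivity, to 1.17 for ATP2, the beta subunit of the catalytic F1 sector. ML1 array A held the lowest value of ATP2, 12.30, and of COX9, COX5A and COX4. These spans thus rest partly on that array, and spans without it were not computed. All 11 ATP synthase genes were lower in pnc1Δ than in wild type (median -0.12), and 2 fell. ATP1, the alpha subunit of the catalytic F1 sector, was at 13.50 and 13.46 in pnc1Δ, against 13.67, 13.72, 13.71 and 13.69 in wild type, and fell by 0.22 ± 0.05 (adjusted p = 0.0434). ATP3, the gamma subunit of F1, was at 11.26 and 11.37, against 11.81, 11.67, 11.61 and 11.70, and fell by 0.38 ± 0.07 (adjusted p = 0.0248). Neither gene's pnc1Δ arrays overlapped wild type. ATP4, subunit b of the stator, was added without ML1 array A (-0.24, adjusted p = 0.0461). With nicotinamide the 11 differences ran from -0.21 to 0.12, and none was called.

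**Figure D4:**
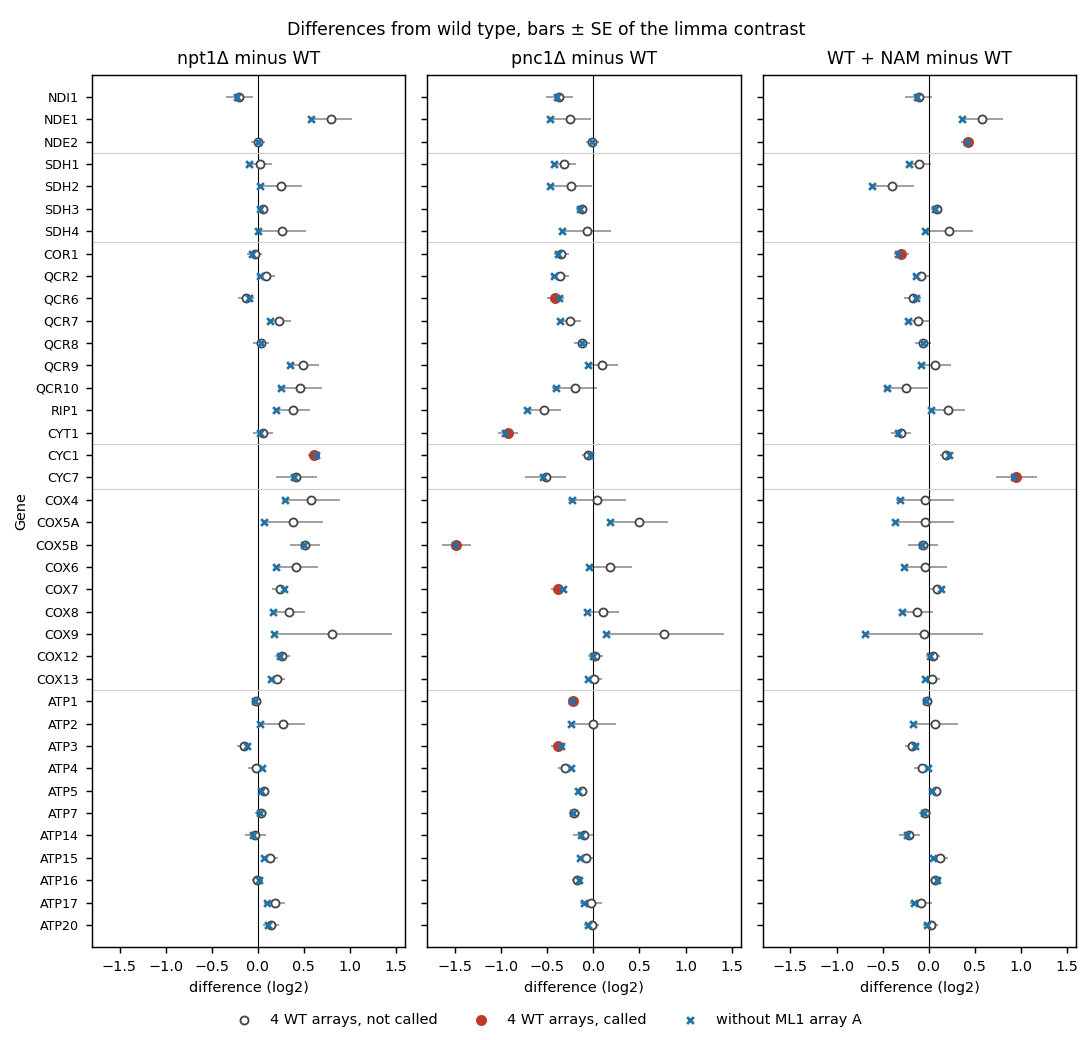
Log2 difference (horizontal axis) from the 4 wild-type arrays for each of the 38 genes (rows) in npt1Δ, pnc1Δ and wild type with nicotinamide, as circles with bars of 1 SE from limma, filled red where the adjusted p was under 0.05, and as blue crosses without ML1 array A. The pnc1Δ panel has 6 red circles, all left of 0, with COX5B furthest out, and the longest bars belong to COX9.

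The calls in pnc1Δ beyond COX5B and CYT1 were lost when single arrays were left out, and some were lost with every array kept. COX5B was called in each of 15 alternative settings (-1.60 to -1.37), and CYT1 in 14 of 15, with an adjusted p of 0.0668 in a fit of the pnc1Δ and wild-type arrays alone. QCR6, COX7, ATP1 and ATP3 each lost the call when either pnc1Δ array was left out, and fewer of all probe sets were called then as well. Over the 15 settings QCR6 and ATP1 lost the call in 10, COX7 in 8 and ATP3 in 6. With no array left out, 4 of the 6 calls were kept under quantile normalization. The number kept was also 4 with dim probe sets left out and 4 with all probe sets fitted. The count of called genes was 2 without ML1 array B, 4 without ML8 array A and 3 without ML8 array B. Over all probe sets the counts in these fits were 71, 123 and 111, and 123 with all arrays. CYC1 in npt1Δ was called in each of 15 settings (0.53 to 0.68). With nicotinamide NDE2 alone kept the call when either of its arrays was left out. The count was 2 without ML1 array B or ML8 array B, where COR1 lost the call (adjusted p = 0.0808 and 0.0755). Over the 15 settings COR1 lost the call in 9, CYC7 in 3 and NDE2 in 1. The count over all probe sets also moved with single arrays.

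By position rather than by test, both pnc1Δ arrays were below all 4 wild-type arrays for 14 of 38 genes, against 13.4% of all probe sets. They were above them for 1 (9.79%). Both npt1Δ arrays were above wild type for 10 of 38 genes (9.42% of all probe sets) and below for 1 (13.3%). In bna1Δ 9 of 38 were above (5.40%) and 0 below (2.09%), and in tna1Δ 10 were above (4.22%) and 0 below (6.58%). With nicotinamide 4 were above (16.4%) and 4 below (16.7%).

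The conditions were also set against each other without the wild-type means. Between npt1Δ and pnc1Δ, deletions of successive enzymes of NAD+ salvage, 37 of 38 genes were higher in npt1Δ (median 0.26, all probe sets -0.02). The exception was COX5A, at 12.17 and 12.03 in npt1Δ, against 12.25 and 12.17 in pnc1Δ. In limma 7 of 38 genes were higher in npt1Δ and none lower, where 4.77% of all probe sets were higher and 1.26% lower, 6.02% in all. COX5B was 3.98-fold higher, at 9.59 and 9.75 in npt1Δ, against 7.64 and 7.72 in pnc1Δ (1.99 ± 0.19, adjusted p = 7.39e-05). CYT1 was higher by 0.98 ± 0.12, NDE1 by 1.04 ± 0.26, RIP1 by 0.91 ± 0.21, CYC1 by 0.67 ± 0.08, COX7 by 0.62 ± 0.09 and QCR2 by 0.45 ± 0.11. All 11 ATP synthase genes were higher in npt1Δ, and none of them was called on all 14 arrays. Fewer genes were called when any one of the 4 npt1Δ and pnc1Δ arrays was left out, which leaves 1 array in a group. The count over all probe sets also moved with single arrays. Without ML1 array A, which enters only the estimate of spread here, 13 were called (8.93% of all probe sets). The 6 added were ATP1 (adjusted p = 0.0378), ATP4 (adjusted p = 0.019), ATP5 (adjusted p = 0.0479), SDH2, QCR7 and QCR10.

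**Figure D5:**
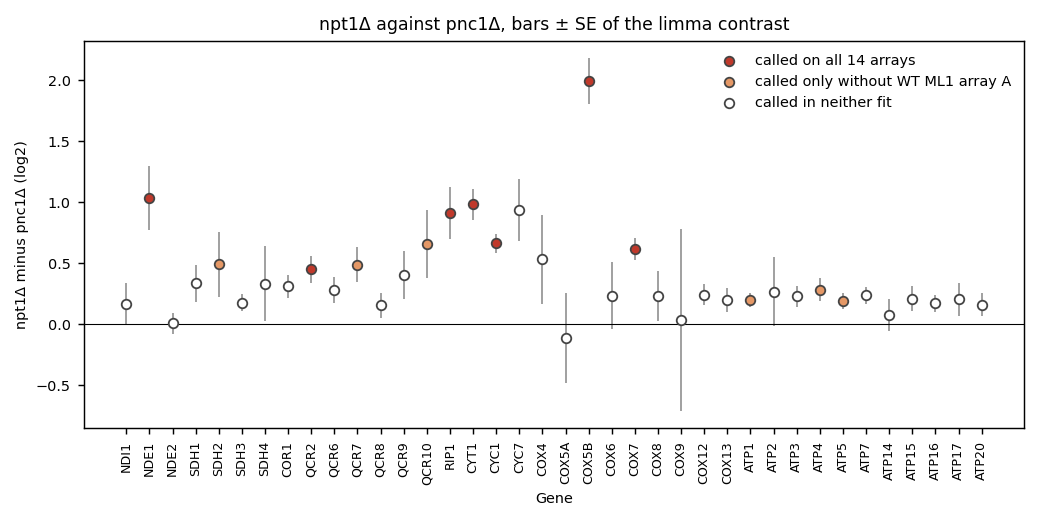
Log2 difference npt1Δ minus pnc1Δ (vertical axis) of each of the 38 genes (horizontal axis, in the order of the complexes), with bars of 1 SE. Red marks the 7 genes called on all 14 arrays and orange those called only without ML1 array A. COX5B stands highest at 1.99, and COX5A alone lies below 0.

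Nicotinamide differed from pnc1Δ in 8 of 38 genes, all higher with nicotinamide, where 9.37% of all probe sets were higher and 6.07% lower, 15.4% in all. These were CYC7 (1.47 ± 0.25), COX5B (1.42 ± 0.19), RIP1 (0.74 ± 0.21), CYT1 (0.62 ± 0.12), COX7 (0.47 ± 0.09), ATP16, the delta subunit of F1 (0.25 ± 0.07), ATP1 (0.20 ± 0.05) and NDE2. NDE2 was at least 1.34-fold higher, since 1 of the 2 pnc1Δ arrays was not above background and the other lay just above its limit. The count fell when either pnc1Δ array or nicotinamide array B was left out, which leaves 1 array in a group. It was 15 without ML1 array A (21.7% of all probe sets). From npt1Δ, nicotinamide differed in 2 of 38 genes (9.04% of all probe sets were called, 5.29% higher and 3.75% lower), NDE2 higher (at least 1.33-fold, with 1 of 2 npt1Δ arrays above background, adjusted p = 0.0117) and CYC1 lower (-0.42 ± 0.08, adjusted p = 0.00652). The count fell when either npt1Δ array or nicotinamide array A was left out. It was 8 without ML1 array A (14.5% of all probe sets). In both comparisons the count over all probe sets also moved with single arrays. Between bna1Δ and tna1Δ 0 of 38 genes were called in limma (0.0364% of all probe sets).

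The isoform pairs were compared within each array, which shows unequal change and not which isoform is more abundant. COX5A minus COX5B was 4.62 and 4.45 in pnc1Δ, against 1.63 to 3.15 in wild type, a shift of 1.98. CYC1 minus CYC7 was 1.08 and 1.01 with nicotinamide, against 1.46 to 2.10 in wild type, a shift of -0.76. With all 4 wild-type arrays both shifts gave p = 0.0667 in a two-sided exact permutation test, the smallest that 2 against 4 arrays allow. After Benjamini-Hochberg adjustment over the 15 tests of 3 pairs in 5 conditions it was 0.50. NDE1 minus NDE2 had its smallest p, 0.133, in npt1Δ, with NDE2 at background there. The other exact tests of this family gave p from 0.20 to 1.

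Genes related to the chain were counted from lists written from textbook knowledge, with earlier results of these data known. Of all probe sets, 3.56% rose and 0.637% fell in npt1Δ, 0.818% rose and 1.42% fell in pnc1Δ, and 8.88% rose and 7.02% fell with nicotinamide. Of 18 further subunits and subunit-like genes measured, 2 fell in pnc1Δ, STF1 and STF2, which stabilise the complex of ATP synthase with its inhibitor protein. STF1 was at 8.28 and 8.35 in pnc1Δ, against 8.87, 9.22, 9.05 and 8.99 in wild type (-0.72 ± 0.11, adjusted p = 0.00889), and STF2 fell by 0.88. In npt1Δ 3 of the 18 rose, STF1 (0.78), SHH3, a homologue of SDH3 (0.57), and ATP18, a small ATP synthase subunit (0.20). With nicotinamide 3 rose, SHH3 (1.27), STF1 (0.53) and SHH4, a homologue of SDH4 (0.42), and RCF2, a supercomplex factor, fell by 0.24. SHH3 was dim in wild type, at 2.56 to 2.80, where the background limit was 2.22 to 2.26. STF1 thus was called higher in npt1Δ and with nicotinamide and lower in pnc1Δ.

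Of 52 assembly genes, 6 (11.5%) were called with nicotinamide, a smaller share than the 15.9% of all probe sets. In the 4 deletion strains limma called 0 of 52. An unadjusted p under 0.05 was reached by 4 in npt1Δ and 6 in pnc1Δ (15.5% and 14.9% of all probe sets). It was reached by 2 in bna1Δ and 2 in tna1Δ (3.13% and 3.58% of all probe sets). With nicotinamide, of 27 cytochrome oxidase assembly genes 3 fell, COX11, a copper delivery factor, by 0.46, SCO2, a homologue of the copper chaperone Sco1, by 0.49, and PET191 by 0.27. Of 25 assembly genes of the bc1 complex and ATP synthase, ATP25 and ATP11 fell by 0.38 and 0.37, and NCA3, linked to expression of mitochondrial ATP synthase genes, rose. NCA3 was at 10.10 and 9.86 with nicotinamide, against 6.49, 7.37, 8.53 and 7.62 in wild type (2.48 ± 0.46, adjusted p = 0.00392). Of 10 ubiquinone synthesis genes COQ4 fell by 0.51, and of 8 heme synthesis genes HEM15, ferrochelatase, fell by 0.16.

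Among 12 regulators of respiratory genes, HAP4, the regulated activation subunit of the Hap complex, was at 9.15 and 9.34 with nicotinamide, against 9.69, 9.87, 10.10 and 9.88 in wild type. It fell by 0.64 ± 0.19 (adjusted p = 0.0418). In pnc1Δ HAP4 was at 9.01 and 9.51, also below all 4 wild-type arrays, and its difference of -0.63 ± 0.19 was not called (adjusted p = 0.124). The npt1Δ arrays had HAP4 at 9.57 and 10.19. HAP1 was at 10.85 and 11.02 in npt1Δ, at 10.79 and 10.85 in pnc1Δ and at 11.04 and 11.24 with nicotinamide, against 11.18, 11.04, 11.36 and 10.98 in wild type, with no call. CAT8, an activator of gluconeogenic genes, rose by 0.63 in npt1Δ, where it was at 2.62 and 3.21, against 2.29, 2.23, 2.29 and 2.31 in wild type. These wild-type values lay close to the background limit of 2.22 to 2.26, so the size of the rise is uncertain.

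Of 13 genes of the citric acid cycle, IDH2, a subunit of isocitrate dehydrogenase, fell by 0.72 in pnc1Δ. With nicotinamide CIT3 rose by 0.81, although its difference was -0.17 under quantile normalization, and LSC2, a succinyl-CoA ligase subunit, fell by 0.45. Of 14 hypoxic genes none was called in npt1Δ or pnc1Δ. With nicotinamide ERG3, of sterol synthesis, rose by 0.48, and DAN1 (-0.93), SUT1 (-0.75) and MGA2 (-0.42) fell.

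Of 21 glucose-repressed and late log-phase genes measured, 3 fell in pnc1Δ (1.42% of all probe sets), YGP1, a secreted glycoprotein gene (-2.67), HXK1, hexokinase 1 (-1.73), and ACH1, an acetyl-CoA hydrolase gene (-0.31), and 17 of 21 were lower than in wild type. HXK1 was at 7.48 and 7.41 in pnc1Δ, against 9.05, 9.62, 9.04 and 8.99 in wild type. In npt1Δ 1 of 21 fell, YGP1 by 0.93, and 16 of 21 were higher than in wild type. With nicotinamide 5 rose (8.88% of all probe sets), HSP12 (1.14), TSL1 (0.96), PCK1 (0.93), YGP1 (0.79) and ADH2 (0.38). Their part in the results for the 38 genes was not tested. In bna1Δ and tna1Δ no gene of any of these lists was called.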

How the data were processed

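Total RNA from 14 yeast cultures was measured on 14 one-colour arrays, and the deposited log2 values of 10928 probe sets were made by the authors with GCRMA, per the submitters' processing notes, which name no version. GCRMA by its design corrects background, applies quantile normalization and summarises the probes of a set. Those values were used as deposited. Array medians and detection (97.5% to 98.5% of S. cerevisiae probe sets above background) were alike, and 2 arrays a group limit the precision.

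Through the supplied annotation, 5498 probe sets matched 1 S. cerevisiae gene each (5449 genes), 1746 had a gene outside the reference, 1 had several, 213 were controls and 3470 had none. No probe set matched the 7 mitochondrially encoded genes, which were not analysed here. The background limit of an array was the 95th percentile of its probe sets whose gene is outside that reference. limma 3.58.1 in R 4.3.3 fitted all 14 arrays with the 4 wild-type arrays as 1 group (8 residual and 2.01 prior degrees of freedom), with Benjamini-Hochberg adjustment over 5498 probe sets. The code was tested on simulated data.

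The members and the other gene lists were chosen with earlier results of these data known. Values per array are given for members called against wild type, the isoform pairs and the members with the largest difference in each direction in a comparison. From other lists, called genes (up to 4 with the largest change) and HAP4 and HAP1 are named, with a few more named after their values were seen. Alternatives were the wild-type pair used, the letter as a block, the arrays fitted, normalization, the filter on dim probe sets, the variance trend, the probe sets fitted and leaving out each array.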

Additional observations from a re-analysis of the deposited data

Results flagged for a closer look

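In 8 genes 1 of the 4 untreated wild-type arrays lay far from the other 3, by a gap that exceeded Dixon's 95% critical value for 4 values. Chance gives such a gap in about 1 in 20 groups, and 4 of 38 respiratory chain and ATP synthase genes and 4 of 31 genes named from the other lists showed one. ML1 array A was low for QCR9 (10.8), RIP1 (9.171) and COX5A (10.76), and all 3 gained calls without it, in fits that drop the flagged value itself. RIP1 was then called in pnc1Δ against wild type, COX5A with nicotinamide against wild type, npt1Δ and pnc1Δ, and QCR9 with nicotinamide against npt1Δ (-0.43, adjusted p = 0.0413). ML8 array A was high for ATP14, a peripheral stalk subunit of the ATP synthase (11.14), which was called in no comparison. Among the other genes, SHH3 was low on ML8 array B (2.562), HXK1 was high on ML1 array B (9.617), ADH2 was high on ML8 array A (7.22) and PCK1 was high on ML1 array A (6.231).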

How the results depend on the processing

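With 2 arrays a condition, the counts of called members moved with single arrays and with the control pair. The count in npt1Δ was 1, ranged from 1 to 2 when each array was left out, and was 5 against the ML1 pair alone. In pnc1Δ it was 6, ranged from 2 to 11, and was 2 against the ML8 pair alone and 1 in a fit of the compared groups alone. With nicotinamide it was 3 and ranged from 1 to 8. Nicotinamide against npt1Δ gave 2, a range of 0 to 8, 0 in a fit of the compared groups and 1 under quantile normalization. Nicotinamide against pnc1Δ gave 8, a range of 3 to 15, and 5 in a fit of the compared groups. The count for npt1Δ against pnc1Δ was 7 with a range of 4 to 13, and for the ML1 pair against the ML8 pair 0 with a range of 0 to 17. In bna1Δ, tna1Δ and between them it was 0 in every setting run.

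The median difference in npt1Δ was 0.1956, from 0.05129 to 0.2439 when each array was left out, and 0.03868 against the ML8 pair. With nicotinamide it was -0.04247, from -0.07834 to 0.04927, and 0.09222 against the ML1 pair. The median in pnc1Δ stayed below 0 in every setting run. Over all probe sets, the count in npt1Δ was 231, and 138 in a fit of the compared groups. In pnc1Δ it was 123, from 22 to 202 when each array was left out, 258 against the ML1 pair, 68 against the ML8 pair, 29 in a fit of the compared groups and 240 with the replicate block. With nicotinamide it was 874, from 458 to 1156, and 533 in a fit of the compared groups. In bna1Δ it was 1, and 2 with all probe sets or the variance trend, 4 against the ML1 pair and 5 against the ML8 pair. In tna1Δ it was 1, from 1 to 5, and 4 against the ML8 pair. Nicotinamide against npt1Δ gave 497 (262 to 798, and 149 in a fit of the compared groups), against pnc1Δ 849 (490 to 1195). The count was 331 for npt1Δ against pnc1Δ (163 to 491, and 191 in a fit of the compared groups), 2 for bna1Δ against tna1Δ (2 to 5) and 4 for ML1 against ML8 (1 to 1132).

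Same-letter arrays deviated together in 17 of 21 pairs of groups (r over 0.1, median 0.387, range -0.232 to 0.593), a hint from the data of something shared. The labels name nothing that a letter marks and the relation did not hold in every pair, so the letter was used as an alternative. With the replicate block 7 members were called in pnc1Δ, 10 between nicotinamide and pnc1Δ and 8 between npt1Δ and pnc1Δ, and no other count of members changed. Of 72 results for single genes or isoform pairs repeated under the settings, those that changed sign in a setting were NDI1 in npt1Δ (0.09969 without npt1Δ array A, -0.5005 without array B), COX9 in pnc1Δ (-0.008161 against the ML8 pair), COX6 in bna1Δ (0.2215 against the ML1 pair, 0.03166 without ML8 array A, -0.3225 without ML1 array A) and CIT3 with nicotinamide (-0.1716 under quantile normalization). None of the 5 was called in that direction, and the cause was not tested. Over all 38 genes, leaving out ML1 array A changed the sign of 4 differences in npt1Δ, 6 in pnc1Δ, 8 in bna1Δ, 3 in tna1Δ and 5 with nicotinamide, 0 of them called with or without it. COX9 in bna1Δ was then at -0.60, against 0.04 with all arrays. Where 1 array is left in a group, its spread is assumed to be that of the other groups. Among the repeats of the 72 results, 786 kept direction and call, 225 lost the call, 1 gained it and 5 changed sign.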
